A study of Mus musculus with 8 samples.

Results

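The Eya family consists of 4 genes, Eya1, Eya2, Eya3 and Eya4, of the 32285 genes counted in these nuclei, and all 4 were found by symbol. The family was chosen by symbol, and 2 members were selected on measured CPM: Eya4 because it was higher in oligodendrocytes at 21 months, and Eya1 because it differed between regions in astrocytes. These 2 patterns are given as descriptions without a test, and tests are given for the other genes, classes and contrasts. Nuclei came from punches of the left anterior hippocampus and the left caudate putamen of C57BL/6JN mice aged 3 and 21 months, with no genotype or treatment named. Each of the 8 libraries (2 per region and age) pooled equal numbers of sorted nuclei from 1 male and 1 female mouse. The 4 groups are the hippocampus at 3 and at 21 months and the caudate putamen at 3 and at 21 months. The labels do not say whether both regions came from the same mice, and the p values measure the spread between 2 pooled libraries per group.

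Eya proteins are transcription cofactors with no DNA-binding domain of their own. They bind homeodomain proteins of the sine oculis family, encoded by genes such as Six3, at target genes, act together with Dach proteins downstream of Pax factors, and carry a phosphatase domain at the C-terminus that acts on tyrosine. The name comes from the fly gene eyes absent, and the family is best known from the development of the eye, ear, kidney and muscle. Eya phosphatases also act on histone H2AX at damaged DNA, and Eya4 has been linked to innate immune signalling.

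In GENCODE vM21 (GRCm38), Eya1 (ENSMUSG00000025932) spans chromosome 1 from 14168954 to 14310235 on the minus strand. Eya2 (ENSMUSG00000017897) spans chromosome 2 from 165595032 to 165771727 on the plus strand, and Eya3 (ENSMUSG00000028886) spans chromosome 4 from 132638987 to 132724765 on the plus strand. Eya4 (ENSMUSG00000010461), the longest at 247824 bases, spans chromosome 10 from 23102963 to 23350786 on the minus strand. Of the annotated genes that overlap a member, only Gm28163, a long noncoding RNA antisense to Eya2, is in the count files, with 1 unique molecular identifier (UMI) in all nuclei together.

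After filtering, 97875 nuclei of 109826 barcodes were retained, 6387 to 17012 per library, with median depths of 6664 to 11326.5 UMIs per nucleus. Clusters were named from marker genes, so every class is "like" its type, and 11.03% of hippocampal and 2.04% of caudate putamen nuclei had no name. Eya genes were kept out of the clustering. In the caudate putamen, choroid plexus-like and ependymal-like nuclei came only from the replicate 1 library of each age. Pairs of libraries shared 20 to 126 barcodes. Levels are CPM (the UMIs of a gene divided by all UMIs of the summed nuclei of a class in a library, times 1000000). The interval of a pooled ratio and a floor cover counting error only. Intervals of a log2 difference are approximate, from the SE of the fit and a normal distribution, and can be narrower than the test allows. A class was tested where every library of the region held at least 20 of its nuclei, which gave 11 hippocampal and 10 caudate putamen classes.

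The 4 genes had different distributions over these 21 combinations of class and region. Eya3 was read in every class within a narrow band, with mean levels from 59.5 to 130 CPM, a 2.19-fold range. Eya1 ranged from 1.57 to 858 CPM and Eya4 from 0.421 to 160 CPM. Eya2 ranged from 0 to 732 CPM and its mean passed 10 CPM in hippocampal fibroblast-like nuclei alone among these combinations. Across the 21 means on the log2(CPM + 1) scale, the Pearson correlation between members was highest for Eya1 and Eya2 (0.43) and for Eya1 and Eya4 (0.39), and lowest for Eya1 and Eya3 (-0.24). These points share libraries, and the correlations are descriptions.

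**Figure D1:**
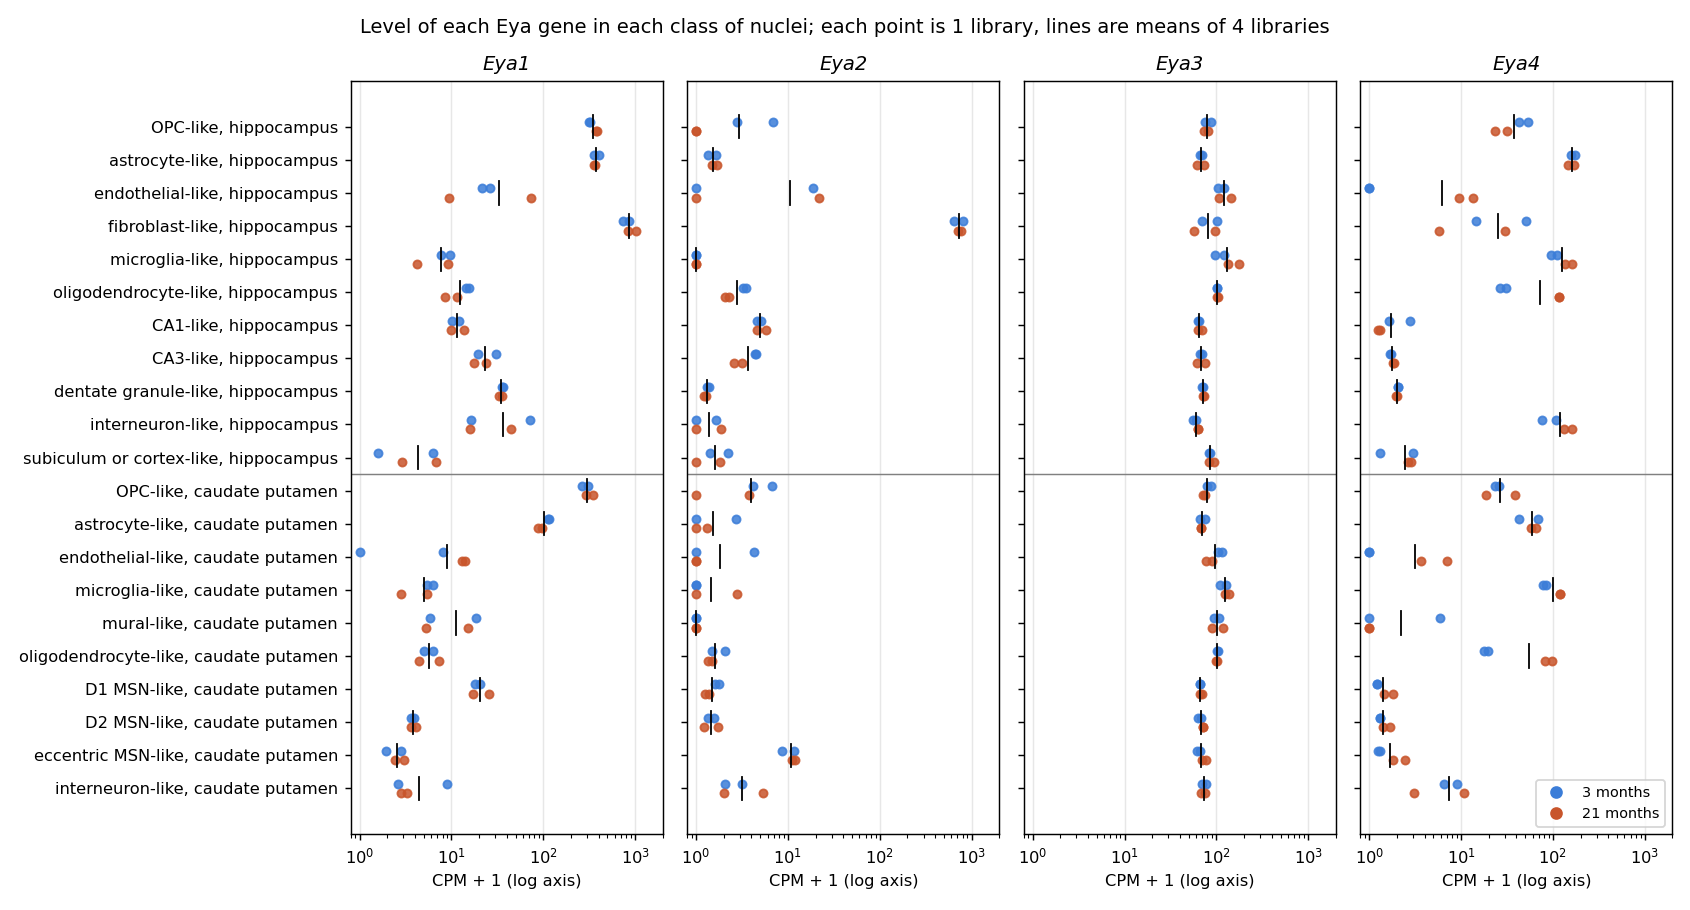
CPM + 1 (log axis) of Eya1, Eya2, Eya3 and Eya4 in each class of each region; each point is 1 library (blue 3 months, orange 21 months), and the vertical line is the mean of 4 libraries. Eya3 stays between 54.2 and 174 CPM in every library, while the other members differ by class.

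Among the tested classes, Eya1 was highest in fibroblast-like nuclei of the hippocampus, at 858 CPM ± 115 (SD, n = 4 libraries). The 62 fibroblast-like nuclei of the caudate putamen, too few to test, held 258 to 1042 CPM. Astrocyte-like nuclei of the hippocampus were next among the tested classes at 370 ± 22.9 CPM, and oligodendrocyte precursor-like nuclei (OPC-like) at 348 ± 36.0 CPM in the hippocampus and 300.1 ± 36.2 CPM in the caudate putamen. The libraries of these last 3 overlapped between neighbours in the order. Caudate putamen astrocyte-like nuclei came next at 101 ± 13.2 CPM, apart from both the class above and the class below. Among neurons, dentate granule-like nuclei held 34.0 ± 1.75 CPM in 18576 nuclei, CA3-like nuclei 22.0 ± 5.93 CPM and CA1-like nuclei 10.5 ± 1.89 CPM.

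The 2 types of medium spiny neuron, the projection neurons of the striatum, differed in Eya1. Nuclei like the D1 type, which express the dopamine receptor Drd1, held 16.99 and 19.7 CPM at 3 months and 16.2 and 24.9 CPM at 21 months. Nuclei like the D2 type, which express Drd2, held 2.59 and 2.89 CPM at 3 months and 3.13 and 2.65 CPM at 21 months. All 4 D1-like values thus lay above all 4 D2-like values. The difference was not tested, because the classes were made by clustering these same nuclei. Within the D1-like class, cluster 0 (10567 nuclei) held 25.8 CPM, cluster 6 (3098 nuclei, with Drd3 among its leading genes) 16.1 CPM and cluster 3 (3966 nuclei, with Sema5b among them) 4.60 CPM.

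Interneuron-like nuclei of the hippocampus varied between libraries, with Eya1 at 70.03 and 15.2 CPM at 3 months and 43.1 and 14.8 CPM at 21 months. The high values were those of replicate 1 at both ages. By cluster, Eya1 was at 63.2 CPM in cluster 24 (259 nuclei), 13.02 CPM in cluster 20 (290 nuclei) and 7.34 CPM in cluster 23 (261 nuclei, with Reln among its leading genes). Caudate putamen interneuron-like nuclei held 3.41 ± 3.03 CPM.

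Eya1 in astrocyte-like nuclei was the pattern that chose this gene. The 4 hippocampal libraries held 405 and 357 CPM at 3 months and 359 and 361 CPM at 21 months. The 4 caudate putamen libraries held 111 and 114 CPM at 3 months and 85.5 and 95.7 CPM at 21 months. The regions did not overlap, and the fitted log2 difference, caudate putamen minus hippocampus, was -1.89 (SE 0.08), -1.76 at 3 months and -2.03 at 21 months. With every nucleus thinned to 2000 UMIs, 44.5% to 50.8% of hippocampal and 14.1% to 18.2% of caudate putamen astrocyte-like nuclei had an Eya1 UMI. Unthinned, these ranges were 67.1% to 72.0% and 26.4% to 37.5%, against 2.26% to 3.26% of the deeper D2-like nuclei in the caudate putamen. In the hippocampus, 1.01% to 2.22% of the shallower microglia-like and 20.4% to 24.4% of the deeper dentate granule-like nuclei had an Eya1 UMI, the latter 5.92% to 6.36% when thinned to 2000 UMIs.

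The regional difference in astrocytes was not even over astrocyte-like clusters. Hippocampal cluster 2, the largest with 4990 nuclei, held 416 CPM of Eya1, and cluster 19 (298 nuclei), with Myoc, Aqp4 and Gfap among its leading genes, held 444 CPM. Hippocampal cluster 25 (244 nuclei) held 314 CPM. Hippocampal cluster 8, with 838 nuclei and Pax3 among its leading genes, held 85.9 CPM, close to the 102 CPM of caudate putamen cluster 4 (3682 nuclei). Caudate putamen cluster 22 (170 nuclei) held 51.5 CPM. Fibroblast markers, which mark the class with the most Eya1, summed to 307 to 401 CPM over 10 genes in hippocampal and 109 to 122 CPM in caudate putamen astrocyte-like nuclei, and their part in the difference was not tested.

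**Figure D2:**
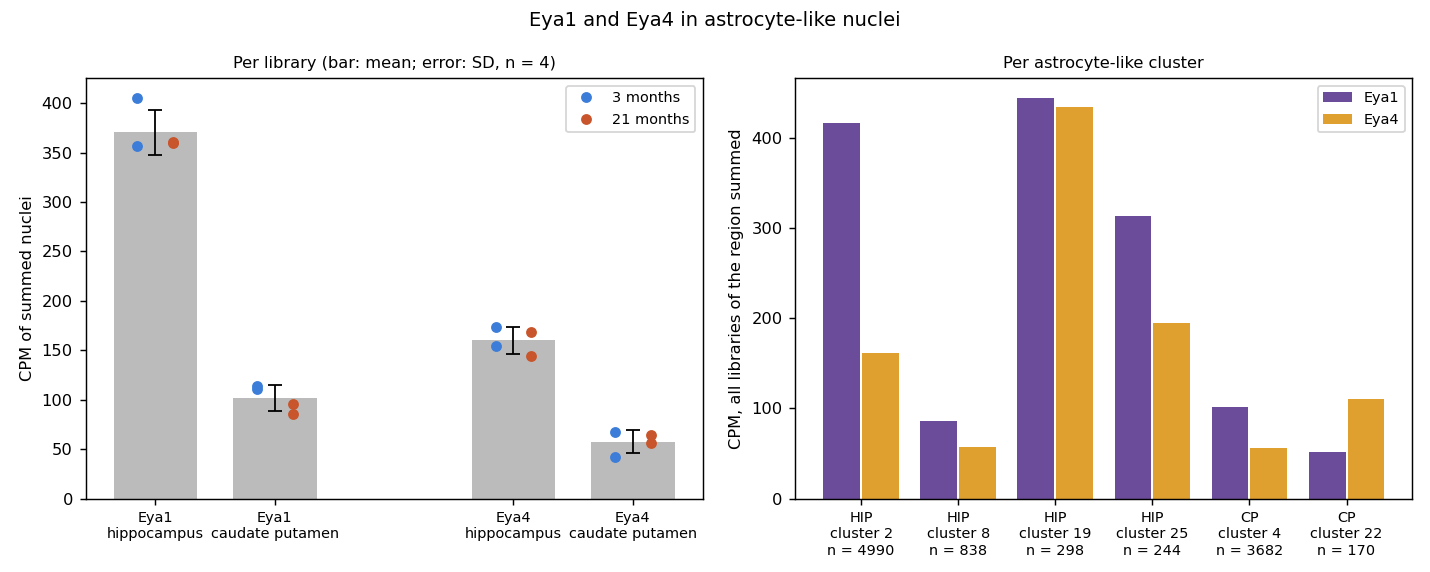
Left, CPM of Eya1 and Eya4 in astrocyte-like nuclei of each region; points are libraries (blue 3 months, orange 21 months), bars are means and error bars SD of 4 libraries. Right, CPM of both genes in each astrocyte-like cluster with all libraries of the region summed; hippocampal cluster 8 has levels near those of caudate putamen cluster 4.

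Eya2 was highest in fibroblast-like nuclei, followed by a small class of rare neurons. The 4 hippocampal fibroblast-like sums held 808 and 635 CPM at 3 months and 713 and 772 CPM at 21 months, and the ages overlapped. The 62 fibroblast-like nuclei of the caudate putamen, pooled, held 559 CPM. In the 161 hippocampal nuclei like Cajal-Retzius cells, a reelin-secreting neuron of the cortical surface, the libraries together held 156 CPM of Eya2, 274 CPM of Eya1 and 212 CPM of Eya4. Per kilobase of gene length, the mean level in hippocampal fibroblast-like nuclei was 6.08 CPM for Eya1, 4.14 for Eya2, 0.935 for Eya3 and 0.0977 for Eya4; whether reads in introns were counted is not given in the sources used here.

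Eya2 also set apart 1 cluster of neurons. Among nuclei like eccentric medium spiny neurons, cluster 11 (705 nuclei) held 32.2 CPM of Eya2, with 34.0 CPM at 3 months and 30.4 CPM at 21 months, while cluster 10 (783 nuclei) held 1.09 CPM and cluster 17 (304 nuclei) 0.765 CPM. As a class, eccentric-like nuclei held 9.85 ± 1.50 CPM (n = 4). The D1-like and D2-like classes held 0.501 and 0.468 CPM. Hippocampal microglia-like nuclei (892) had no Eya2 UMI in any library, which allows levels of up to 3.23 to 6.05 CPM (3 counts per library), and caudate putamen mural-like nuclei (323) had none either, which allows up to 10.5 to 17.4 CPM.

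Eya3 showed the least spread of the family. The tested classes with the highest means were the microglia-like nuclei, at 129.99 ± 32.4 CPM in the hippocampus and 123 ± 11.3 CPM in the caudate putamen, and hippocampal endothelial-like nuclei at 119 ± 18.5 CPM. Oligodendrocyte-like nuclei lay at 101 ± 1.54 CPM in the hippocampus and 101 ± 1.44 CPM in the caudate putamen. The lowest mean, 59.5 ± 3.74 CPM, was that of hippocampal interneuron-like nuclei. Astrocyte-like nuclei held 66.6 ± 4.94 CPM in the hippocampus and 68.8 ± 4.03 CPM in the caudate putamen. Per kilobase of gene, the hippocampal astrocyte-like means were 2.62 CPM for Eya1, 0.777 for Eya3, 0.647 for Eya4 and 0.00308 for Eya2.

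Eya4 was read in glia and in some interneurons, and hardly in principal neurons. Hippocampal astrocyte-like nuclei had the highest mean among the tested classes, 160 ± 13.5 CPM (n = 4). Microglia-like nuclei held 125 ± 28.9 CPM in the hippocampus and 99.1 ± 22.4 CPM in the caudate putamen, hippocampal interneuron-like nuclei 118 ± 35.2 CPM and OPC-like nuclei 36.7 ± 12.9 and 25.8 ± 8.71 CPM. Over both ages together, the means of oligodendrocyte-like nuclei and of caudate putamen astrocyte-like nuclei lay between those of the microglia-like and OPC-like classes, and each class in this order overlapped the next in its libraries. At 3 months alone, the oligodendrocyte-like means (27.7 CPM in the hippocampus and 17.8 CPM in the caudate putamen) lay below the OPC-like means of the same region (46.9 and 23.7 CPM). In dentate granule-like nuclei the level was 1.01 ± 0.05 CPM and in D1-like and D2-like nuclei 0.421 ± 0.271 and 0.429 ± 0.177 CPM.

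Small classes held Eya4 as well. The 53 ependymal-like nuclei of the caudate putamen, the ciliated lining of the ventricle, held 186 CPM in the 3-month library and 153 CPM in the 21-month library that had them. The choroid plexus-like nuclei of the same 2 libraries held 132 and 121 CPM. Hippocampal astrocyte-like cluster 19, with the most Gfap, held 435 CPM, against 162 CPM in cluster 2 and 57.2 CPM in cluster 8. Of the hippocampal interneuron-like clusters, cluster 23 held 192 CPM and cluster 24 137 CPM, while cluster 20 held 3.87 CPM. The caudate putamen interneuron-like class held 6.35 ± 3.33 CPM.

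Eya4 in oligodendrocyte-like nuclei was the pattern that chose this gene. The hippocampal libraries held 29.97 and 25.4 CPM at 3 months and 115 and 114 CPM at 21 months. The caudate putamen libraries held 18.7 and 16.9 CPM at 3 months and 81.4 and 97.7 CPM at 21 months. All 4 libraries at 21 months lay above all 4 at 3 months. The fitted log2 difference of 21 against 3 months was 2.11 (SE 0.14) in the hippocampus and 2.39 (SE 0.14) in the caudate putamen, with a mean of 2.25 (SE 0.10).

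The higher level came with more nuclei that had any Eya4 UMI. In the hippocampus, 6.82% (75 of 1100) and 6.37% (99 of 1555) of oligodendrocyte-like nuclei had a UMI at 3 months, and 23.1% (308 of 1336) and 23.0% (262 of 1140) at 21 months. In the caudate putamen the shares were 4.23% (95 of 2247) and 4.11% (99 of 2407) at 3 months, and 15.9% (577 of 3627) and 17.9% (683 of 3822) at 21 months. Nuclei with 3 or more UMIs made up 0.454% to 0.707% at 3 months and 1.78% to 3.97% at 21 months. With nuclei thinned to 2000 UMIs the shares were 2.41% to 4.86% at 3 months and 12.1% to 17.03% at 21 months. Nuclei deep enough for this were 2237 of 2655 at 3 months and 2237 of 2476 at 21 months in the hippocampus, and 4269 of 4654 and 5692 of 7449 in the caudate putamen. As a measure of free RNA, 0.776% to 1.14% of dentate granule-like nuclei, with median depths of 10020 to 11440 UMIs, had an Eya4 UMI. D1-like nuclei of the caudate putamen had one in 0.323% and 0.362% at 3 months and 0.618% and 0.785% at 21 months, so this measure was itself higher at 21 months there. Its part in the oligodendrocyte-like shares was not tested.

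**Figure D3:**
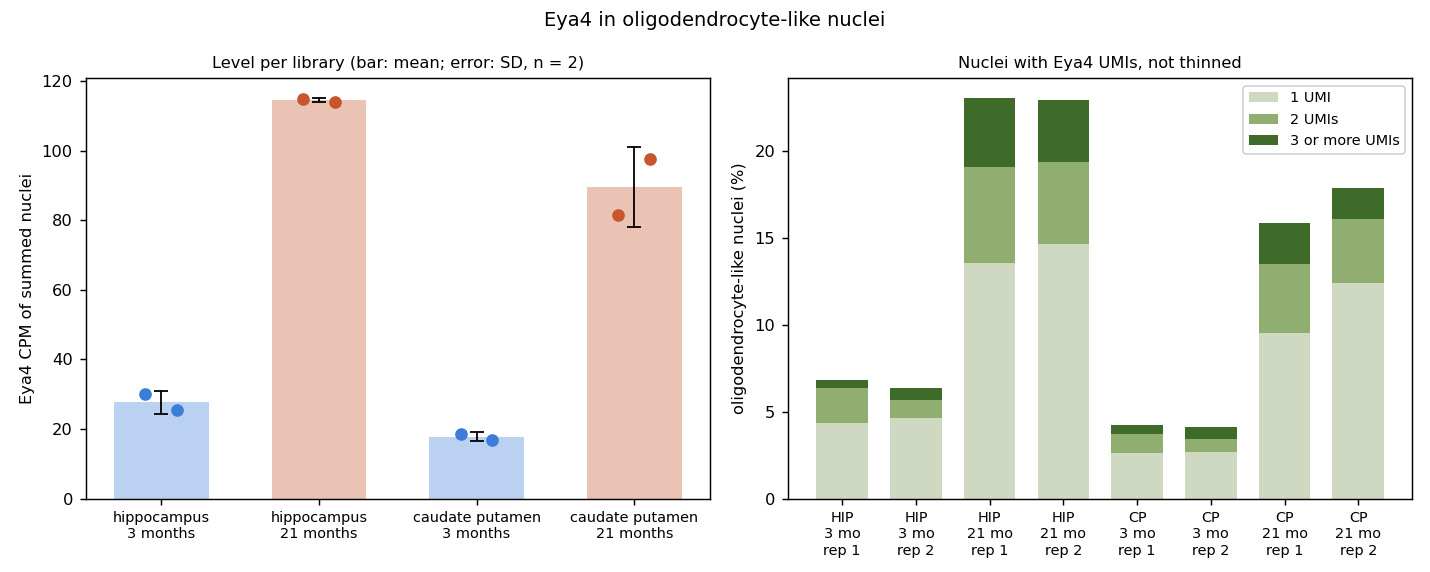
Left, Eya4 CPM in oligodendrocyte-like nuclei by region and age; points are libraries, bars means and error bars SD of 2 libraries. Right, percent of these nuclei with 1, 2, or 3 or more Eya4 UMIs in each library, not thinned; the 4 libraries at 21 months reach 15.9% to 23.1%, and the 4 at 3 months 4.11% to 6.82%.

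The difference by age was present in each large oligodendrocyte-like cluster. In hippocampal cluster 3 (3972 nuclei) Eya4 was at 25.2 CPM at 3 months and 106 CPM at 21 months, and in cluster 6 (1085 nuclei) at 30.6 and 141 CPM. In caudate putamen cluster 2 (9734 nuclei) it was at 13.6 and 83.4 CPM and in cluster 7 (2237 nuclei) at 29.9 and 112 CPM. Caudate putamen cluster 26, 75 nuclei of which 65 came from 3-month libraries, held 1.49 CPM. With the largest cluster of each region alone, an alternative chosen after the clusters were seen, the mean log2 difference was 2.39.

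Markers of other cells were summed by region and age. Within oligodendrocyte-like nuclei, 11 astrocyte markers summed to 504 to 594 CPM at 3 months and 399 to 565 CPM at 21 months in the hippocampus, and to 341 to 436 and 544 to 612 CPM in the caudate putamen. The 12 microglia markers summed to 53.8 to 71.3 CPM in the hippocampus and 61.4 to 73.6 CPM in the caudate putamen over both ages. The 8 markers of committed precursors and new oligodendrocytes summed to 1097 to 1272 CPM at 3 months and 1063 to 1279 CPM at 21 months over both regions. The 7 markers of oligodendrocyte precursors summed to 155 to 233 CPM at 3 months and 120 to 140 CPM at 21 months in the hippocampus. In the caudate putamen they summed to 124 CPM and then 125 to 161 CPM. The part of RNA from other cells in the Eya4 values of either region was not tested.

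The age difference of Eya4 in oligodendrocyte-like nuclei was compared between regions and sexes. These contrasts rest on the same Eya4 counts as the rise that chose the gene, so they are not independent of that choice. Its difference between regions (caudate putamen minus hippocampus) was 0.28 on the log2 scale (SE 0.19, approximate 95% interval -0.10 to 0.66). The adjusted p was 0.796 in edgeR's quasi-likelihood test over all 14640 genes. Nuclei were assigned to a sex by Xist and Y-linked genes, which placed 72.27% to 81.65% of the nuclei of a library over all classes. In every library the share placed was lower among oligodendrocyte-like nuclei. Each caudate putamen library had more female than male nuclei placed in this class, although equal numbers from both sexes were pooled. Hippocampal libraries went either way. The part of this placing in the female and male values, here and in other classes, was not tested. At 3 months in the caudate putamen, female nuclei held 21.2 ± 1.73 CPM and male nuclei 9.35 ± 1.08 CPM. These rested on 88 and 112 Eya4 UMIs in 1201 and 1235 female nuclei, and on 12 and 21 in 381 and 509 male nuclei. In the hippocampus at 3 months, female and male nuclei held 30.1 ± 4.48 and 28.0 ± 5.14 CPM. At 21 months they held 88.5 ± 25.9 and 87.3 ± 12.9 CPM in the caudate putamen, and 112 ± 15.2 and 119 ± 9.50 CPM in the hippocampus (SD, n = 2). The female age effect minus the male one was -0.64 (SE 0.30), with an adjusted p of 0.561 in edgeR, so no difference between the sexes was called.

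Outside that pair, age effects were tested wherever a member passed the count filter. Eya3 passed in all 21 combinations, Eya1 and Eya4 in 14 each and Eya2 in 10. In the hippocampus 0 of 30 pairs of a gene and a class were called at an adjusted p under 0.05 in edgeR, beside 1.03% of all tests in those 11 classes. Unadjusted p was under 0.05 for 5 of the 30, with 4 of them higher at 21 months, and DESeq2 called 0. In the caudate putamen 0 of 27 were called in edgeR, beside 1.26% of all tests, 4 had an unadjusted p under 0.05 (2 higher), and DESeq2 called 0. No rise or fall of Eya3 was called in any class, its log2 differences lying between -0.37 and 0.53.

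The pairs with the lowest adjusted or unadjusted p in each region were not called. Eya1 in hippocampal OPC-like nuclei was at 311 and 323 CPM at 3 months and 381 and 376 CPM at 21 months, groups that did not overlap (log2 0.33, SE 0.12, adjusted p 0.22 in edgeR). With doublets retained this pair was called (log2 0.58, adjusted p 0.0126 in edgeR). The 8 markers of committed precursors and new oligodendrocytes were lower at 21 months in OPC-like nuclei, at 2548 to 2588 CPM and then 1664 to 1803 CPM in the hippocampus and 2104 to 2147 CPM and then 1612 to 1878 CPM in the caudate putamen, and their part in the OPC-like values was not tested. Eya4 in hippocampal interneuron-like nuclei was at 75.7 and 107 CPM at 3 months and 158 and 130.5 CPM at 21 months (log2 0.72, SE 0.17, adjusted p 0.649 in edgeR, where none of the class's 12178 genes was called). With no low-count filter that adjusted p was 5.27e-05, and over the other settings it stayed above the threshold. The class held 209 and 403 nuclei at 3 months and 100 and 98 at 21 months. Its clusters differed in Eya4, as given above, and the part of their mix at each age was not tested. Eya4 in D1-like nuclei differed by 1.47 (SE 0.38, adjusted p 0.113 in edgeR), at levels of 0.214 to 0.794 CPM. The same Eya4 counts served above as a measure of free RNA, and the part of free RNA in this difference was not tested. Eya2 in the same nuclei was at 0.610 and 0.762 CPM at 3 months and 0.253 and 0.379 CPM at 21 months (log2 -1.15, SE 0.33, adjusted p 0.131 in edgeR). The lowest unadjusted p in the caudate putamen was that of Eya4 in microglia-like nuclei (log2 0.59, SE 0.18, adjusted p 0.232 in edgeR), whose levels are given with the mean of both regions.

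**Figure D4:**
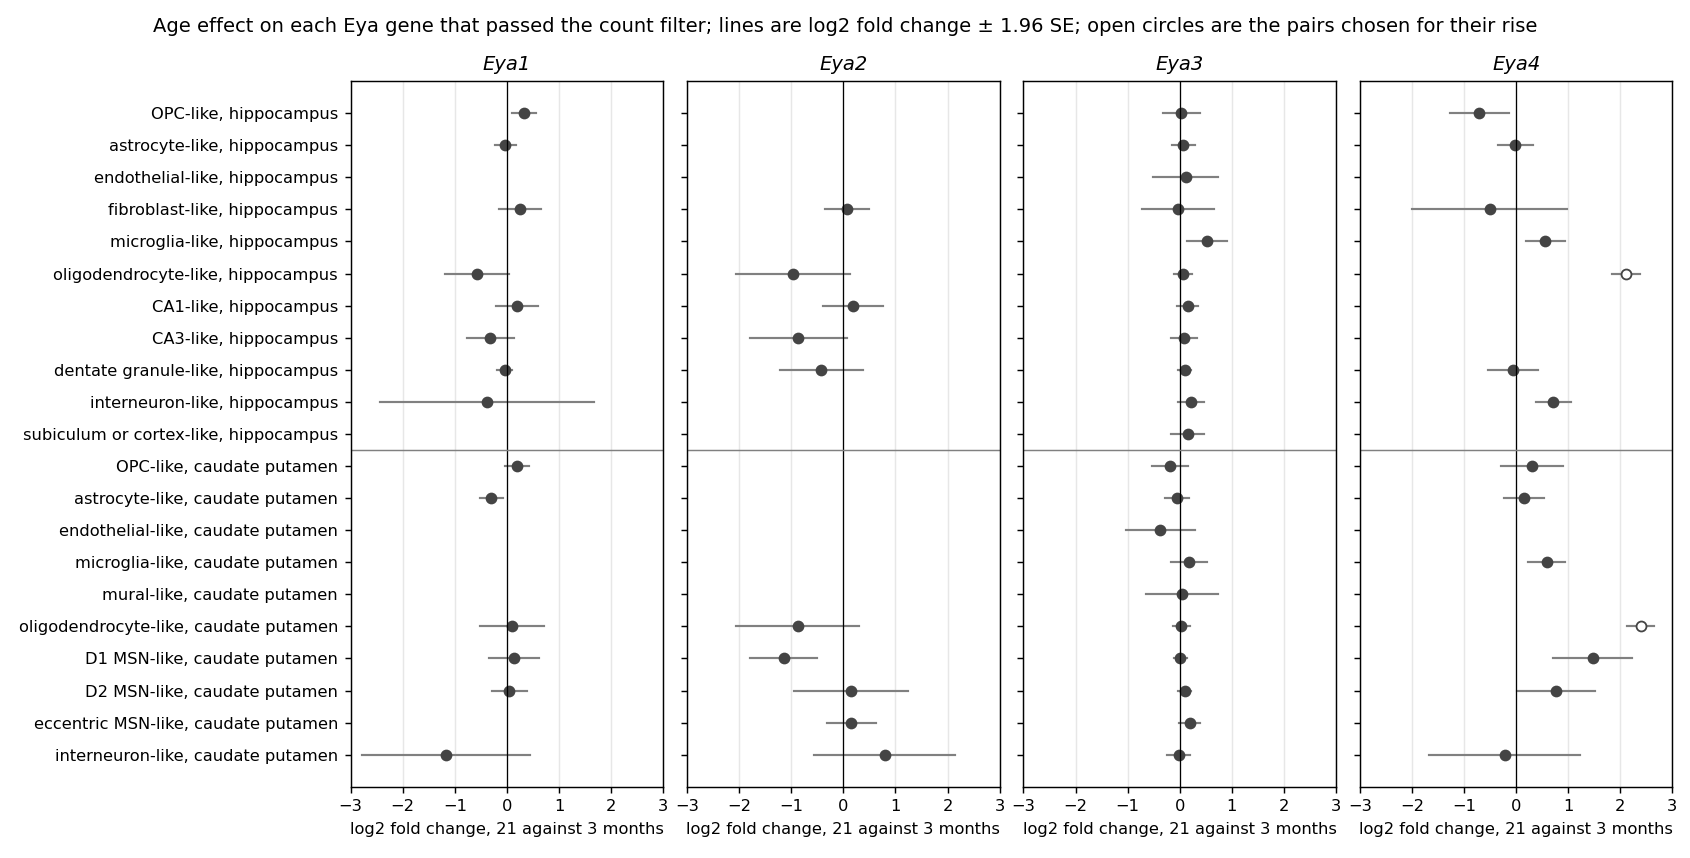
Log2 fold change of 21 against 3 months for each Eya gene in each class that passed the count filter. Lines are approximate 95% intervals from the SE. The open circles mark Eya4 in oligodendrocyte-like nuclei (2.11 and 2.39), which was chosen for this rise; the filled points were tested and none was called in a single region.

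Over both regions, 12 pairs in the 5 classes present in both (astrocyte-, oligodendrocyte-, OPC-, microglia- and endothelial-like) were tested for a mean age effect, and 1 was called, beside 2.95% of all tests. That pair was Eya4 in microglia-like nuclei. The hippocampal libraries held 94.9 and 111 CPM at 3 months and 133 and 162 CPM at 21 months, and the caudate putamen libraries 77.4 and 82.2 CPM and then 117 and 120 CPM. The groups did not overlap within either region. The mean log2 difference was 0.57 (SE 0.13, adjusted p 0.0346 in edgeR, where 1.37% of the class's genes were called), with 0.56 in the hippocampus and 0.59 in the caudate putamen, neither called alone.

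This call depended on the settings while the size did not. Leaving out any 1 library except the first 21-month hippocampal one ended it, with adjusted p values of 0.0692 to 0.175, as did DESeq2 (0.425), retained doublets (0.145) and a clustering resolution of 0.5 (0.0523). The log2 difference stayed between 0.49 and 0.63 in all 15 alternatives. The 12 oligodendrocyte markers summed to 283 to 457 CPM in hippocampal microglia-like nuclei at 3 months and 420 to 458 CPM at 21 months, and to 667 to 669 and 751 to 753 CPM in the caudate putamen. The 11 astrocyte markers summed to 753 to 926 CPM at 3 months and 578 to 714 CPM at 21 months in hippocampal microglia-like nuclei, and to 566 to 619 and 695 to 871 CPM in the caudate putamen. The 12 microglia markers summed to 10957 to 11967 and 11113 to 11535 CPM in the hippocampus, and to 11258 to 11570 and 9583 to 10929 CPM in the caudate putamen. The part of these markers in the Eya4 values was not tested.

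Between regions, members were lower in the caudate putamen wherever a difference was called. Of 12 pairs tested in the 5 shared classes, 4 were called, all lower, beside 11.1% of all tests; 7 had an unadjusted p under 0.05, all lower, and DESeq2 called 3. They were Eya4 in astrocyte-like nuclei and Eya1, Eya2 and Eya4 in oligodendrocyte-like nuclei. With doublets retained, Eya4 in microglia-like nuclei was also called (log2 -0.96, adjusted p 1.62e-04 in edgeR, against -0.33 and 0.215 without them). No difference of Eya3 was called, with log2 differences from -0.23 to 0.03 in 5 classes.

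Eya4 in astrocyte-like nuclei was at 173 and 155 CPM at 3 months and 169 and 144 CPM at 21 months in the hippocampus. In the caudate putamen it was at 67.8 and 41.7 CPM at 3 months and 56.3 and 64.8 CPM at 21 months. No caudate putamen library reached the lowest hippocampal one. The log2 difference was -1.49 (SE 0.13, adjusted p 5.77e-05 in edgeR, where 21.3% of the class's genes were called), and it was called in all 16 alternatives, from -1.84 to -1.35. The largest clusters differed as well, 162 CPM in hippocampal cluster 2 against 55.9 CPM in caudate putamen cluster 4, while hippocampal cluster 8 held 57.2 CPM. So both Eya1 and Eya4 were lower in caudate putamen astrocyte-like nuclei, whereas Eya3 differed by 0.03 (approximate 95% interval -0.13 to 0.19).

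In oligodendrocyte-like nuclei Eya4 was lower in the caudate putamen by a log2 difference of -0.52 (SE 0.10, adjusted p 0.00386 in edgeR, beside 12.9% of genes called). Within each age the caudate putamen libraries lay below the hippocampal ones, by the values given above. It was called in all 16 alternatives; with doublets retained the difference was -0.98. Contrasts of the regions within a single age were not planned, and their calls under the alternatives are not given. Eya4 in oligodendrocyte-like nuclei was called at 3 months alone (-0.66, adjusted p 0.0216 in edgeR) and not at 21 months alone (-0.38, adjusted p 0.0982). The difference between the ages was itself not called, as given above. Eya4 in astrocyte-like nuclei was called at each age alone (-1.57 at 3 months and -1.41 at 21 months).

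Eya1 and Eya2 were low in this class. Eya1 was at 14.6 and 13.6 CPM at 3 months and 10.5 and 7.53 CPM at 21 months in the hippocampus, and at 4.03 and 5.23 and then 3.43 and 6.31 CPM in the caudate putamen (log2 -1.27, SE 0.22, adjusted p 0.00269 in edgeR). It was called at 3 months alone (-1.61, adjusted p 0.00876 in edgeR) and not at 21 months alone (-0.94, adjusted p 0.117), and the difference between the ages was itself not called (0.67, SE 0.44, adjusted p 0.783 in edgeR). With doublets retained the mean difference was -0.54, with an adjusted p of 0.078. Dentate granule-like nuclei, the largest hippocampal class, held 34.0 CPM of Eya1, D2-like nuclei 2.81 CPM, and hippocampal and caudate putamen microglia-like nuclei 6.67 and 3.98 CPM. Astrocyte-like nuclei, where Eya1 was chosen for its difference between regions, held 370 CPM in the hippocampus and 101 CPM in the caudate putamen. In oligodendrocyte-like nuclei the 11 astrocyte markers summed to 399 to 594 and 341 to 612 CPM, in the same order. They summed to 17246 to 18727 and 15891 to 17330 CPM in astrocyte-like nuclei. The part of free RNA, that of astrocytes included, in the difference was not tested.

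Eya2 rested on 32 UMIs in hippocampal and 23 in caudate putamen oligodendrocyte-like nuclei, at 1.05 to 2.47 and 0.343 to 1.05 CPM (log2 -1.53, SE 0.42, adjusted p 0.0334 in edgeR). Leaving out any 1 of the 8 libraries ended this call, with adjusted p values of 0.0511 to 0.141, as did DESeq2 (0.144) and retained doublets (0.728, at a log2 difference of -0.29). Fibroblast markers summed to 9.24 to 21.1 CPM over 10 genes in hippocampal and 4.08 to 7.44 CPM in caudate putamen oligodendrocyte-like nuclei, and their part in the difference was not tested.

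For OPC-like nuclei no mean difference between regions was called with all libraries and doublets removed. Eya1 differed by -0.24 (SE 0.09, adjusted p 0.0947 in edgeR) and Eya4 by -0.49 (SE 0.21, adjusted p 0.225 in edgeR). Eya1 was called without the first old caudate putamen library (adjusted p 0.0221 in edgeR) and with doublets retained (0.0349), and Eya4 without the second old caudate putamen library (log2 -0.83, adjusted p 0.0367). Eya4 was at 52.1 and 41.7 CPM at 3 months and 22.3 and 30.9 CPM at 21 months in the hippocampus, and at 25.0 and 22.3 and then 17.8 and 38.1 CPM in the caudate putamen. In the unplanned contrast at 3 months alone, Eya4 was lower in the caudate putamen (log2 -0.997, SE 0.27, adjusted p 0.025 in edgeR, beside 2.79% of the class's genes called). At 21 months alone the difference was 0.02 (SE 0.33). The age effects of the members did not differ between regions by any call (0 of 13 pairs in edgeR, 1 with an unadjusted p under 0.05, 0 in DESeq2), beside 0.00173% of all tests. The 13 include Eya4 in oligodendrocyte-like nuclei, which was chosen for its rise with age. The single pair with an unadjusted p under 0.05 was Eya4 in OPC-like nuclei, with a difference of 1.01 (SE 0.42, adjusted p 0.809 in edgeR).

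Sex was tested in the classes shared by both regions, for Eya1, Eya3 and Eya4, as Eya2 passed the count filter in none of them. No sex difference was called in 12 pairs in edgeR, beside 0.0851% of all tests, with 0 at an unadjusted p under 0.05 and 0 called by DESeq2. The log2 differences, female minus male, lay between -0.18 and 0.25. A different age effect by sex was called in 0 of 12 pairs, Eya4 in oligodendrocyte-like nuclei among them, beside 0.282% of all tests. Of these pairs, 3 had an unadjusted p under 0.05, and DESeq2 called 0.

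The partners of the Eya proteins were examined as a list of 14 genes (among them Six3, Six5, Dach1, Dach2, Pax3, Pax6 and Sobp, which encodes a binding partner of these homeodomain proteins). Six5 was low in several classes, with a mean of 11.25 CPM in hippocampal fibroblast-like nuclei, where Eya1 and Eya2 were highest. Between regions 21 pairs of a partner and a class were tested, and 8 were higher and 6 lower in the caudate putamen, beside the 11.1% of all tests. The higher ones were all Six3 or Dach1. In astrocyte-like nuclei the median log2 difference of the 6 partners tested was -0.45, against -0.01 for all genes, with 2 called higher and 3 lower. The medians were -0.17 in OPC-like, 0.02 in oligodendrocyte-like, 4.85 in microglia-like and -0.29 in endothelial-like nuclei, so they had no common direction.

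Six3, a homeodomain factor of the ventral forebrain, had no UMI in hippocampal astrocyte-, OPC-, oligodendrocyte- or microglia-like nuclei. In the caudate putamen it was at 29.8 ± 5.26, 15.9 ± 2.72, 12.5 ± 1.87 and 18.3 ± 9.16 CPM in these classes. Against a floor of 3 counts over the hippocampal libraries together, pooled levels were at least 329-fold, 22.9-fold, 73.6-fold and 15.7-fold higher. Eccentric-, D2- and D1-like neurons held 32.7, 27.6 and 24.1 CPM, and endothelial-like nuclei 12.1 CPM, and the part of neuronal RNA in the glial values was not tested.

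Dach1, the corepressor partner, was higher in the caudate putamen in the same 4 classes, where 21.3% (astrocyte-like), 5.16% (OPC-like), 12.9% (oligodendrocyte-like) and 5.66% (microglia-like) of all genes were called. In astrocyte-like nuclei it was at 198 ± 23.8 CPM in the hippocampus and 602 ± 186 CPM in the caudate putamen (log2 1.55, SE 0.13, adjusted p 6.09e-05 in edgeR). In oligodendrocyte-like nuclei it was at 5.39 ± 1.90 and 119 ± 26.3 CPM. D1- and D2-like neurons held 834 and 765 CPM, and D1 markers summed to 1644 to 2374 CPM in caudate putamen oligodendrocyte-like nuclei against 645 to 697 CPM in hippocampal ones. Their part in the difference was not tested.

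Pax3, Pax6 and Sobp were lower in caudate putamen astrocyte-like nuclei. Pax6, a factor of neural progenitors and astrocytes, was at 117 ± 10.85 CPM in the hippocampus and 63.1 ± 12.2 CPM in the caudate putamen (log2 -0.92, SE 0.10). Pax3 was at 20.4 ± 10.7 and 0.492 ± 0.546 CPM, and Sobp at 151 ± 11.4 and 74.5 ± 14.8 CPM. Pax3 was also lower in OPC-like nuclei, with 89 hippocampal and 3 caudate putamen UMIs, a 33.2-fold ratio of pooled CPM (95% interval 11.01 to 164). Sobp was also called lower in oligodendrocyte-like and endothelial-like nuclei; the endothelial call (adjusted p 0.0413 in edgeR, beside 2.95% of genes called) was lost in 8 of 13 alternatives, among them every left-out library except the second young caudate putamen one, at adjusted p values of 0.0594 to 0.265. D1- and D2-like neurons held 41.15 and 42.4 CPM of Sobp, against 455 CPM in dentate granule-like nuclei.

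**Figure D5:**
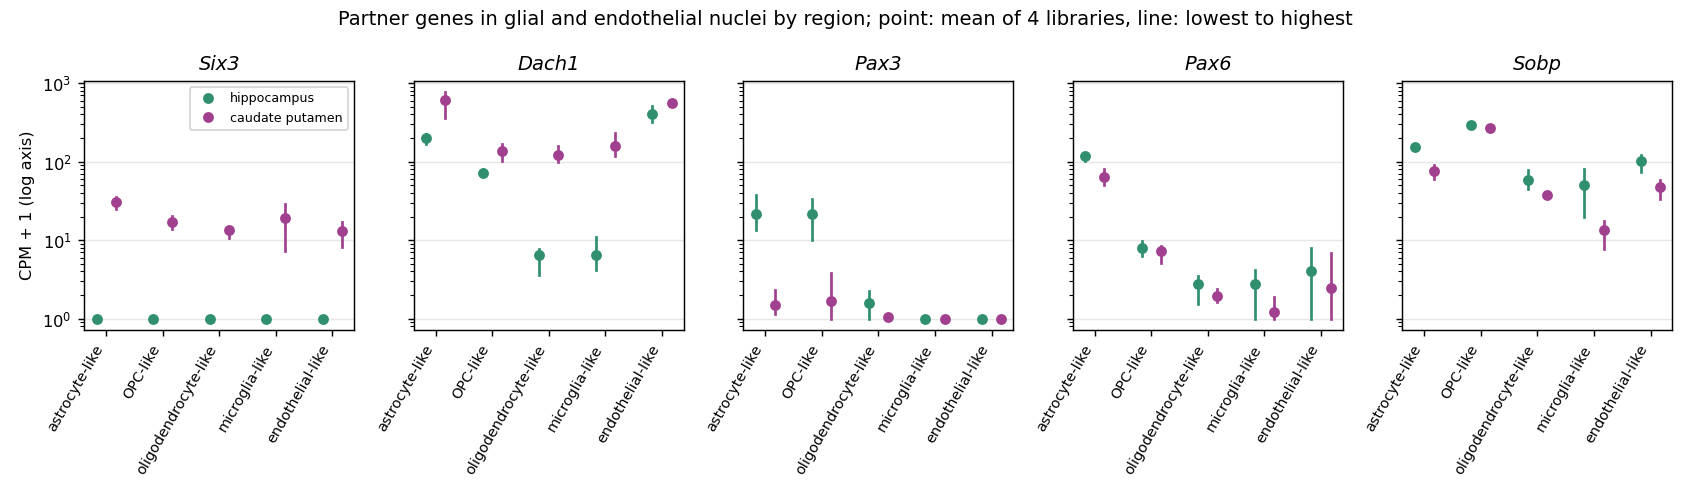
CPM + 1 (log axis) of Six3, Dach1, Pax3, Pax6 and Sobp in glial and endothelial-like nuclei of the hippocampus (green) and the caudate putamen (purple); points are means of 4 libraries and lines run from the lowest to the highest library. Six3 is at 0 in every hippocampal class drawn, and Dach1 is higher in the caudate putamen in the 4 glial classes.

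With age, partners changed in the hippocampus in 4 of 40 pairs, 3 higher and 1 lower, beside 1.03% of all tests. In CA1-like nuclei, where 1.08% of genes were called, Dach1 rose from 50.6 ± 0.595 to 72.1 ± 5.46 CPM (log2 0.60, SE 0.10, adjusted p 0.00587 in edgeR), a call lost without the first 21-month library (adjusted p 0.156). In dentate granule-like nuclei, where 4.25% of genes were called, Dach1 fell by 1.14 on the log2 scale (SE 0.12), with 11.2 ± 1.01 CPM at 3 months and 4.95 ± 0.05 CPM at 21 months. Dach2 rose there by 1.36 (SE 0.16), with 2.59 ± 0.381 CPM at 3 months and 6.51 ± 0.937 CPM at 21 months, so the 2 Dach genes moved in opposite directions. Both were low in this class. Hippocampal oligodendrocyte-like and microglia-like nuclei held 5.39 and 5.52 CPM of Dach1. The part of free RNA in the dentate granule-like values was not tested.

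Dach2 also rose in hippocampal OPC-like nuclei, from 35.7 ± 0.930 to 84.6 ± 17.5 CPM (log2 1.33, SE 0.22, adjusted p 2.88e-04 in edgeR, beside 1.14% of the class's genes called), a call lost without the second 21-month library (adjusted p 0.0546). Its mean age effect over both regions was 0.87 (SE 0.15), beside 2.11% of genes called, and it was called in all 15 alternatives. The markers of committed precursors and new oligodendrocytes were lower at 21 months in this class in both regions, as given above, while Dach2 was higher. Their part in the Dach2 change was not tested. In the caudate putamen 0 of 42 partner pairs were called in edgeR, beside 1.26% of all tests, 10 had an unadjusted p under 0.05 and DESeq2 called 1. In oligodendrocyte-like nuclei 0 of the 5 partners tested were called for a mean age effect in edgeR, beside 5.68% of the class's genes, 2 had an unadjusted p under 0.05 and DESeq2 called 1.

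DNA damage and innate sensing genes linked to Eya phosphatases were given as 2 further lists. Of 8 DNA damage genes (H2afx, Mdc1, Atm, Atr, Trp53bp1, Baz1b, Mapk8 and Brca1), 0 of 71 pairs were called for age in the hippocampus, beside 1.03% of all tests, and 0 of 68 in the caudate putamen, beside 1.26%, in edgeR, with 2 pairs each at an unadjusted p under 0.05 and 0 called by DESeq2. Between regions 0 of 33 were called, beside 11.1% of all tests, with 5 at an unadjusted p under 0.05 and 0 called by DESeq2. Of 8 innate sensing genes (Tmem173, which encodes STING, Cgas, Tbk1, Irf3, Irf7, Mavs, Ifih1 and Ddx58), 1 of 46 pairs was called for age in the hippocampus in edgeR, beside 1.03% of all tests, with 7 at an unadjusted p under 0.05 and 1 called by DESeq2. For the caudate putamen, 0 of 42 were called in edgeR, beside 1.26%, with 7 at an unadjusted p under 0.05 and 0 called by DESeq2. Irf3, a transcription factor of the interferon response, fell in dentate granule-like nuclei by 0.52 on the log2 scale (SE 0.10; 14.5 ± 0.389 CPM at 3 months, 9.76 ± 0.531 CPM at 21 months; adjusted p 0.0161 in edgeR), a call lost without either 21-month library (adjusted p 0.209 and 0.0812). Ddx58 and Ifih1, which encode the RNA sensors RIG-I and MDA5, were lower in caudate putamen astrocyte-like nuclei (log2 -0.60 and -0.62), the 2 called of 25 pairs tested between regions, beside 11.1% of all tests. In astrocyte-like nuclei these were 2 of 5 tested, beside 21.3% of the genes of this class. DESeq2 did not call Ifih1 (adjusted p 0.0897).

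The genes most like each member over the 21 means were ranked by Pearson's r on the log2(CPM + 1) scale among 14575 genes that reached 10 CPM in some class. For Eya1 they were Gas1 (r = 0.86), Stxbp4, Glis1, Gm29521 and Gm16499 (0.82). For Eya2 they were Slc22a2 (0.92), Scara5, Aldh1a2, Gm12830 and Il13ra2 (0.91), and Eya2 rests on a single class. For Eya3 they were Gxylt1 (0.96), Rasgrp3, Picalm, Eri1 and Eed (0.93), and for Eya4 Prkdc (0.91), Ccdc50, Clcn5, Metap1d and Lzic (0.87). The classes share libraries and differ in depth.

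Over the 8 oligodendrocyte-like sums, Eya4 was most like Iqsec1, Ccdc136, Wdfy4, Lrmda and St6galnac3 (r = 0.99 each after rounding, among 14640 genes). Over the 8 astrocyte-like sums, Eya1 was most like Rnf43, Arhgap31, Zic2, Vegfc and Gm11681 (r = 0.99 each after rounding, among 15057 genes). The 8 sums fall into 2 groups by age in the first case and by region in the second, so these values mostly rank genes by that same difference.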

How the data were processed

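The deposited matrices hold raw UMI counts per gene and nucleus that the authors made with Cell Ranger. The headers give version 6.1.2 in 7 libraries and 7.0.0 in 1, the second 3-month caudate putamen library. That library enters the age contrasts of the caudate putamen and the region contrasts. The submitters' processing notes name Cell Ranger 4.0.0 and mm10. Whether intronic reads were counted, and the same way in all libraries, is not given in the sources used here. Barcodes with under 500 genes (1307) or over 5% mitochondrial UMIs (3) and Scrublet doublets (10641, 2.55% to 15.6% per library) were removed. The automatic doublet threshold of 1 library (40.4%) was replaced by its expected share, a rule chosen after it was seen, as were the limits for naming clusters. Nuclei were clustered per region with scanpy 1.11.5 and leidenalg 0.10.2, without the Eya and list genes. Counts were summed per class and library and tested with edgeR 4.0.16 (quasi-likelihood, TMM, filterByExpr) over all genes of a class, with Benjamini-Hochberg adjustment and a threshold of 0.05; DESeq2 1.42.0 was an alternative. Shared classes were fitted over 8 libraries and the others over the 4 of their region. Library totals ran from 67205436 to 234811422 UMIs. Gene positions come from GENCODE vM21, which matched 99.8% of gene identifiers. The test was tested on simulated oligodendrocyte-, astrocyte-, microglia-, OPC- and dentate granule-like sums, with the same dispersion for every gene. It called nearly all of the larger known fold changes there and missed a part of the smaller ones in each class simulated. Glial age effects in a single region and the other classes were not simulated. The genes named by rule were the Eya members, the list members called and the 5 genes most like a member; Six5 was named after its values were seen, and other uncalled list members are named to give the content of their list. The members and lists were chosen with earlier results of these data known. Values of 1 gene of the partner list are not reported here.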

Additional observations from a re-analysis of the deposited data

How the results depend on the processing

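Among single tested results, those of the list genes included, 371 values under alternatives kept their direction and call, 34 lost the call and 0 changed sign. For classes of 1 region, the alternative of 1 region alone repeats the main fit and counts as kept. Eya2 in oligodendrocyte-like nuclei lost its regional call in 10 of 16 alternatives and Eya1 there in 1 of 16. Eya4 in microglia-like nuclei lost its mean age call in 10 of 15. The count of Eya calls between regions was 3 to 4 when 1 library was left out, but not for one set of pairs: Eya2 in oligodendrocyte-like nuclei was lost in all 8 such fits, and Eya1 in OPC-like (without the first old caudate putamen library), Eya4 in OPC-like (without the second) and Eya1 in endothelial-like nuclei (without the second young caudate putamen or the second old hippocampal library) were called in edgeR instead. With no low-count filter Eya1 and Eya2 in endothelial-like nuclei were also called lower (log2 -2.33 and -3.83, adjusted p 0.00225 and 0.0479 in edgeR). For age, the hippocampal count of Eya pairs went from 0 to 1 with no low-count filter (Eya4 in interneuron-like nuclei) and to 1 with doublets retained (Eya1 in OPC-like nuclei, adjusted p 0.0126 in edgeR). The mean age count went from 1 to 0 with DESeq2 and with resolution 0.5, and ranged from 0 to 1 without 1 library; without the second old caudate putamen library the call was Eya1 in OPC-like nuclei (adjusted p 0.0341 in edgeR), and with doublets retained, at a count of 1, it was the same pair (log2 0.36, adjusted p 0.0374 in edgeR). The log2 difference of Eya4 in oligodendrocyte-like nuclei was 2.389 in the largest cluster alone and 2.16 to 2.31 without 1 library. That of Eya1 in astrocyte-like nuclei was -2.204 with doublets retained, -2.059 in the largest cluster alone and -1.95 to -1.83 without 1 library. The share of oligodendrocyte-like nuclei with an Eya4 UMI, 3.56% at 3 and 15.2% at 21 months, was 1.949% and 8.377% when thinned to 1000 UMIs and 5.381% and 19.95% without thinning.

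For the partner, DNA damage and innate lists together, the hippocampal age count of 5 was 10 with no low-count filter and 3 to 11 without 1 library. The caudate putamen count of 0 was 1 with DESeq2, 3 with no low-count filter and 0 to 1 without 1 library. The mean age count of 1 was 3 with DESeq2, 5 with no low-count filter, 2 with doublets retained and 1 to 3 without 1 library. The regional count of 16 was 27 with doublets retained, and the count for the difference of age effects went from 0 to 1 with no low-count filter. The cause of these changes was not tested.

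The labels tie no replicate number to an animal, and the correlation of deviations between same-numbered libraries was -0.05 to 0.06 in oligodendrocyte- and astrocyte-like nuclei, except between young and old caudate putamen (0.11 and 0.23), the contrast whose counts the block moved most. With the replicate number as a block, the caudate putamen age count of Eya pairs went from 0 to 2 (Eya2 and Eya4 in D1-like nuclei, log2 -1.14 and 1.48, adjusted p 0.0288 and 0.0146 in edgeR), and the list counts were 8 in the hippocampus, 6 in the caudate putamen and 3 for the mean. Eya4 in D1-like nuclei also served above as a measure of free RNA.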
